A study of Mus musculus with 12 samples.

Results

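The complement and coagulation proteins described here are 48 genes, chosen by name as the rows of the deposited expression table whose symbol is on a fixed list. They are 48 of 24532 genes in the table. The genes cover the recognition proteins and proteases of complement, C3 and the alternative pathway, the terminal pathway, complement regulators and receptors, clotting and contact factors, fibrinogen, and the anticoagulants with the fibrinolytic system. Whole-liver RNA-seq libraries came from mice aged 20 wk on the strain C57BL/6x129S6/SvEv, 12 libraries in 3 groups of 4. Het (heterozygous) mice served as controls, KO mice were Atp7b-/-, and KO_drug mice were Atp7b-/- and were fed an LXR agonist. Atp7b encodes the copper-transporting ATPase that is lost in Wilson disease, and the liver X receptors (LXR) are nuclear receptors for oxysterols. The agonist is not named in the labels used here, its dose and duration and the animals' sex are not stated, and there is no Het group fed the agonist.

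Complement is a cascade of plasma proteases. C1q binds antibody on a surface and activates C1r and C1s, mannose-binding lectins bind sugars and activate the MASP proteases, and both routes split C4 and C2 to form an enzyme that cleaves C3. Factor B, factor D and properdin form a second C3-cleaving enzyme, and C5 to C9 then assemble the pore called the membrane attack complex. Clotting runs through vitamin K-dependent proteases to thrombin, which turns fibrinogen into fibrin, while antithrombin, protein C and protein S hold it back and plasmin dissolves the clot. Hepatocytes secrete most of these proteins into blood. C1q, properdin and the receptors for the fragments C3a and C5a are made mainly by macrophages and other myeloid cells, and factor D mainly by fat tissue.

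Library totals ranged from 16535938 to 28329751 counts. The targeted gene was measured first. Atp7b stood at 9.90, 13.1, 12.2 and 16.2 CPM in Het 1 to 4, at 1.68 to 2.71 CPM in KO and at 1.27 to 3.49 CPM in KO_drug. CPM are counts per 1000000 counts on library sizes scaled by the trimmed mean of M-values (TMM), which centres the change of the average gene near 0. Under scaling by total counts the median change of all genes moved from 0.02 to 0.54 on the log2 scale in KO against Het and from -0.02 to -0.36 in KO_drug against KO, so changes are given against the centre that TMM sets. Among the KO libraries, KO 5 carried 81.7 CPM of Xist, the RNA of the inactive X chromosome, and KO 6 carried 17.8, where no other library exceeded 0.425. The Y-linked gene Ddx3y was at 0.379 CPM in KO 5 and 64.4 in KO 6. Because of their Xist, KO 5 and KO 6 were left out of an alternative fit that kept KO 2 and KO 4. Only KO held libraries with Xist at such levels, and the part of sex in the comparisons with KO was not tested. All 12 hepatocyte markers examined were detected. In KO against Het 11 of them were called lower, against 17.7% of all genes (4 under total-count scaling, against 3.44%). Their summed level was 82500 to 135000 CPM in Het, 40200 to 71700 CPM in KO and 67800 to 90300 CPM in KO_drug.

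One control library stood apart for these genes, though not for them alone. Het 1 had the lowest level of the 4 Het libraries for 41 of the 47 members that could be tested, against 29.4% of all tested genes. Its median member was at 0.511 times the geometric mean of the other 3 Het libraries, while the median of all tested genes differed by 0.03 on the log2 scale. The genes in which it was not lowest were C1qa, C1qb, C7, C8g, Mbl1 and Cd55. Members took 2.78% of all counts in Het 1 and 4.99 to 5.41% in Het 2 to 4. In the other groups they took 5.25 to 6.33% (KO) and 3.67 to 4.75% (KO_drug). Other secreted plasma proteins of hepatocytes summed to 121000 CPM in Het 1 and to 161000 to 192000 CPM in Het 2 to 4. The hepatocyte markers summed to 82500 CPM in Het 1 and to 102000 to 135000 CPM in Het 2 to 4. Macrophage markers were not lowest in Het 1, at 449 CPM against 403 to 552 CPM. With genes split into 4 equal classes by model length, those of the shortest class were higher in Het 1 by a median of 0.20 on the log2 scale, and those of the longest class by 0.00. What sets Het 1 apart was not tested. Counts of members called against Het are therefore given with and without it. So are the values of members that move by over 1.5 times or change their call in KO against Het. Counts for gene lists outside the members include Het 1 unless stated.

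**Figure D1:**
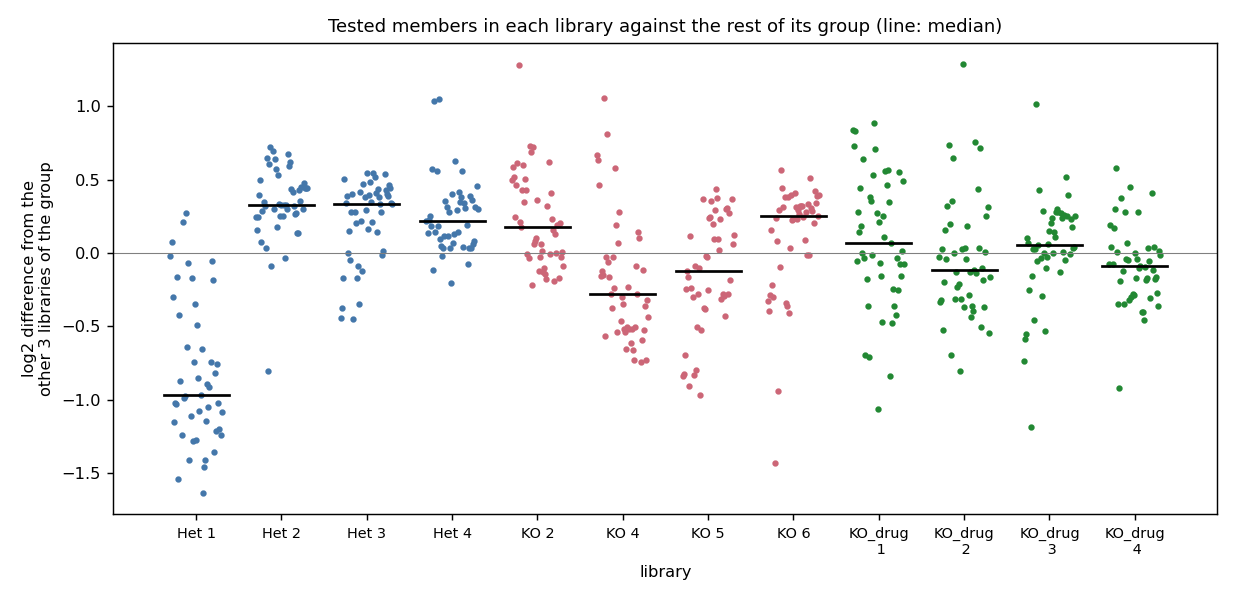
Each point is 1 of the 47 tested members in 1 library, plotted as its log2 difference (y axis) from the mean of the other 3 libraries of its group, and the black line is the median. The median is -0.97 in Het 1 and lies between -0.29 and 0.34 in the other 11 libraries.

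In control liver the fibrinogen chains were the most abundant members per length of gene model. Mean FPKM (fragments per kilobase and 1000000 fragments, as deposited) in Het were 2370 ± 760 for Fgb, 2120 ± 671 for Fgg and 1560 ± 557 for Fga (SD, n = 4), and these ranges overlapped. Vitronectin (Vtn, 1150 FPKM), C3 (820), antithrombin (Serpinc1, 811), kininogen (Kng1, 793) and prothrombin (F2, 625) followed. The myeloid receptors stood near the bottom, with C3ar1 at 0.483 and C5ar1 at 0.452 FPKM, and C7 at 0.209 FPKM. Cfd, which encodes factor D, was the only member that could not be tested. It had no count in Het and reached at most 0.260 CPM in any library. Of 5 adipocyte markers examined, 3 (Plin1, Lep and Retn) had no count in any library, and Adipoq could not be tested. The other marker, Adrb3, was called higher in KO than in Het (log2 3.15). The markers summed to 0 to 0.740 CPM in Het, 1.87 to 5.24 CPM in KO and 2.17 to 4.83 CPM in KO_drug.

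KO against Het asks what goes with the loss of Atp7b. Of the 47 tested members, 15 passed an adjusted p of 0.05 in edgeR's quasi-likelihood test (31.9%), and 40.7% of all 13379 tested genes did. The 9 that rose (19.1%, against 23% of all genes) were the C1q chains C1qa, C1qb and C1qc, the myeloid genes Cfp, C3ar1 and C5ar1, and Mbl2, Serping1 and Pros1. The 6 that fell (12.8%, against 17.7% of all genes) were the C8 chains C8a, C8b and C8g, Mbl1, Masp2 and Klkb1. The median member changed by -0.08 on the log2 scale and the median of all genes by 0.02. Neither share exceeded that of all genes. Without Het 1, all 15 calls remained and 11 more members were called lower, so that 17 of 47 fell (36.2%, against 16.5% of all genes). Those 11 were Masp1, Vtn, F2, F10, Fga, Fgb, Fgg, Plg, Serpinc1, Serpinf2 and Kng1. Het 1 was singled out by its low levels of these same members, so leaving it out raises their Het means by construction. The larger share without Het 1 is therefore no separate support for a fall of the members. Under total-count scaling 22 members were called higher and 3 lower, where 51.5% and 3.44% of all genes were.

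**Figure D2:**
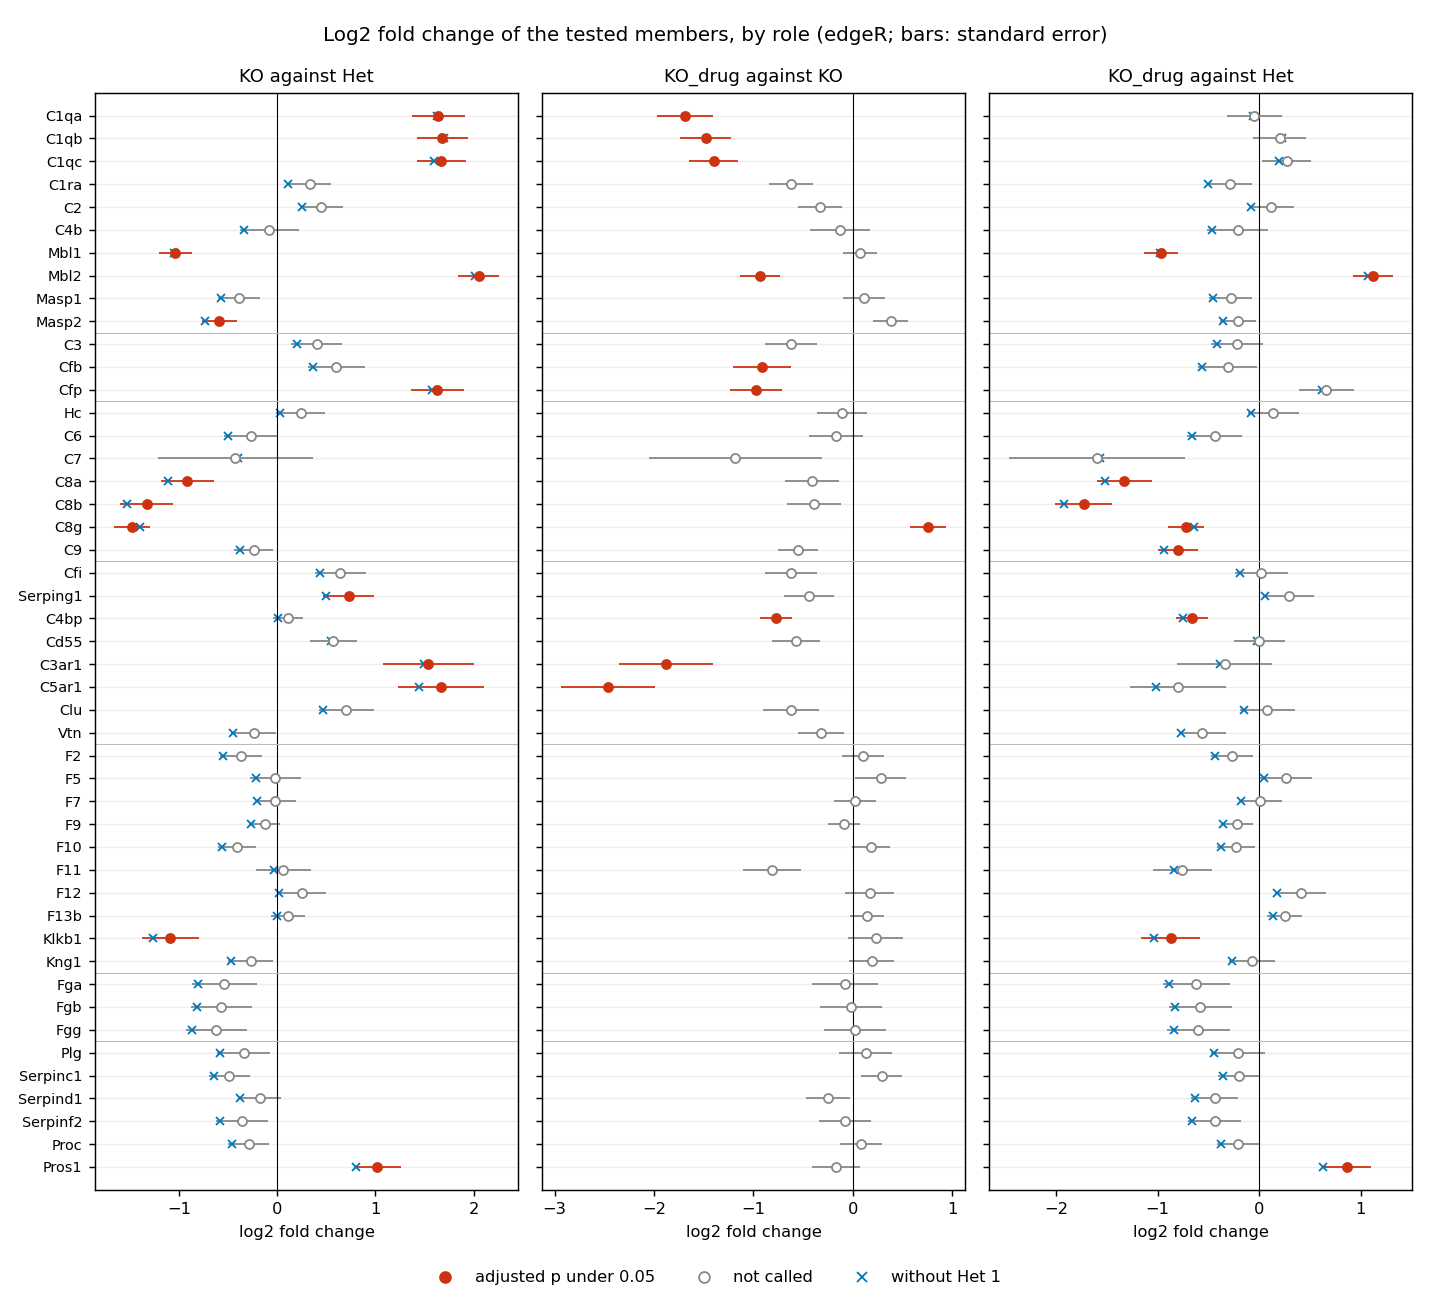
Log2 fold change (x axis) of the 47 tested members, in rows grouped by role and separated by grey lines, in the 3 comparisons. Bars are standard errors, filled red points passed an adjusted p of 0.05, open points did not, and blue crosses are the values without Het 1. In KO against Het most crosses in the lower part lie left of their points, while for C1qa, Mbl1 and Mbl2 cross and point nearly coincide.

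Among the recognition proteins, the C1q chains moved as a unit. C1qa, C1qb and C1qc encode the polypeptides that together form C1q, and they lie in 1 cluster on chromosome 4, with gaps of 2.98 kb between C1qa and C1qc and 3.60 kb between C1qc and C1qb. Their promoters are shown because the genes changed together. The bases before the first annotated start, from RefSeq (GRCm38.p6, the mm10 build), are chr4:136886201-136886450, minus strand, for C1qb and chr4:136893066-136893164, minus strand, for C1qc, where the window was shortened to 99 bases to stay clear of the transcript. Capitals mark GAGGAA or its reverse complement TTCCTC, the core bound by ETS factors such as PU.1 of myeloid cells.
C1qb: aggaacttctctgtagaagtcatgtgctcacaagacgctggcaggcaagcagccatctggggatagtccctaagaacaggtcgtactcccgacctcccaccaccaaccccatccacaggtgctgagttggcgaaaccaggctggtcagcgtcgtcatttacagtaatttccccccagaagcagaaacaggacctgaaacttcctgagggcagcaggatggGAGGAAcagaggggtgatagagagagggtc
C1qc: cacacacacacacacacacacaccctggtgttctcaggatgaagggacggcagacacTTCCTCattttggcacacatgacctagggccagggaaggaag
GAGGAA was searched on both strands in the 250 bases before the start. It occurred in 23.3% of 32851 promoters in the table and in 4 of 38 member promoters, so a match is frequent and is a description only.

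In CPM, with libraries always in the order Het 1 to 4, KO 2, 4, 5 and 6, and KO_drug 1 to 4, C1qa stood at 41.4, 47.6, 33.2 and 47.0, then 163, 178, 80.9 and 106, then 61.0, 38.6, 26.6 and 37.7. C1qb stood at 42.1, 43.9, 33.2 and 43.4, then 169, 173, 80.7 and 101, then 66.2, 37.9, 33.2 and 50.0. For C1qc the levels were 28.4, 37.8, 30.4 and 37.4, then 135, 131, 71.5 and 88.5, then 59.9, 32.7, 28.9 and 39.6. Every KO library lay above every library of the other 2 groups for each chain, and KO 2 and KO 4 lay above KO 5 and KO 6. Where 2 groups of 4 do not overlap, the exact two-sided permutation p is 0.0286, the smallest that 4 against 4 allows. In KO against Het the chains rose 3.11-fold (C1qa, log2 1.64, SE 0.27, edgeR adjusted p = 0.000553), 3.21-fold (C1qb, 1.68, SE 0.26, 0.000343) and 3.18-fold (C1qc, 1.67, SE 0.25, 0.000238). In KO_drug against KO they fell by 1.69 (SE 0.28, adjusted p = 0.0021), 1.48 (SE 0.26, 0.00299) and 1.40 (SE 0.25, 0.00286) on the log2 scale. KO_drug differed from Het by -0.05 to 0.27 for the 3 chains, with standard errors of 0.24 to 0.27 and adjusted p-values of 0.486 to 0.931. Using KO 2 and KO 4 as the sole KO libraries, the rises were 1.96, 2.02 and 1.93.

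Properdin and the anaphylatoxin receptors also had their highest group mean in KO. Cfp encodes properdin, the stabilizer of the alternative C3 convertase, and stood at 17.4, 21.0, 17.9 and 20.3 CPM in Het, 83.8, 59.5, 47.2 and 46.3 in KO, and 45.3, 18.5, 21.4 and 36.0 in KO_drug. C3ar1, the receptor of C3a, stood at 2.78, 3.64, 3.07 and 2.86 CPM, then 14.9, 13.2, 4.43 and 3.25, then 2.98, 2.50, 0.992 and 3.24. For C5ar1, the receptor of C5a that draws neutrophils and macrophages, the levels were 0.876, 1.71, 2.01 and 2.40 CPM, then 6.65, 8.21, 4.40 and 3.00, then 1.46, 1.56, 0.606 and 0.371. The KO libraries lay above all Het libraries for Cfp and C5ar1, while for C3ar1 KO 6 lay among them, and all 3 genes were lower in every KO_drug library than in any KO library. In KO against Het, Cfp rose 3.09-fold (log2 1.63, SE 0.27, edgeR adjusted p = 0.000507), C3ar1 2.90-fold (1.54, SE 0.46, 0.0173) and C5ar1 3.17-fold (1.67, SE 0.44, 0.00936). The call of C3ar1 was lost without KO 2, without KO 4 and under limma-voom. In KO_drug against KO, Cfp fell by 0.97 (SE 0.26, adjusted p = 0.0225), C3ar1 by 1.88 (SE 0.47, 0.0149) and C5ar1 by 2.46 (SE 0.47, 0.00412). The fall of Cfp was not called without KO 2, KO_drug 2 or KO_drug 3 or in a fit of these 2 groups alone, and that of C3ar1 not under limma-voom. KO_drug differed from Het by 0.66 for Cfp (SE 0.27), -0.34 for C3ar1 (SE 0.47) and -0.80 for C5ar1 (SE 0.47). None of these was called, but Cfp was called higher under total-count scaling and without KO_drug 2.

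Markers of macrophages moved with these 6 genes. Of 14 macrophage and Kupffer cell markers, 13 were called higher in KO than in Het, against 23% of all genes. In KO_drug against KO 10 of these markers were called lower, against 11% of all genes. Their summed level was 403 to 552 CPM in Het, 1000 to 2260 CPM in KO (KO 2 2260, KO 4 1680, KO 5 1000 and KO 6 1190) and 479 to 1090 CPM in KO_drug. Adgre1, which encodes the F4/80 antigen, changed by 1.99 (SE 0.38) in KO against Het and by -1.46 (SE 0.37) in KO_drug against KO. Csf1r, the receptor for macrophage colony-stimulating factor, changed by 1.18 (SE 0.24) and -1.47 (SE 0.24). The sum of the C1q chains divided by the summed marker list was 0.232 to 0.249 in Het, 0.207 to 0.286 in KO and 0.172 to 0.227 in KO_drug. In whole liver, more cells of a type and more RNA per cell cannot be told apart, and the part of macrophage number in these changes was not tested.

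**Figure D3:**
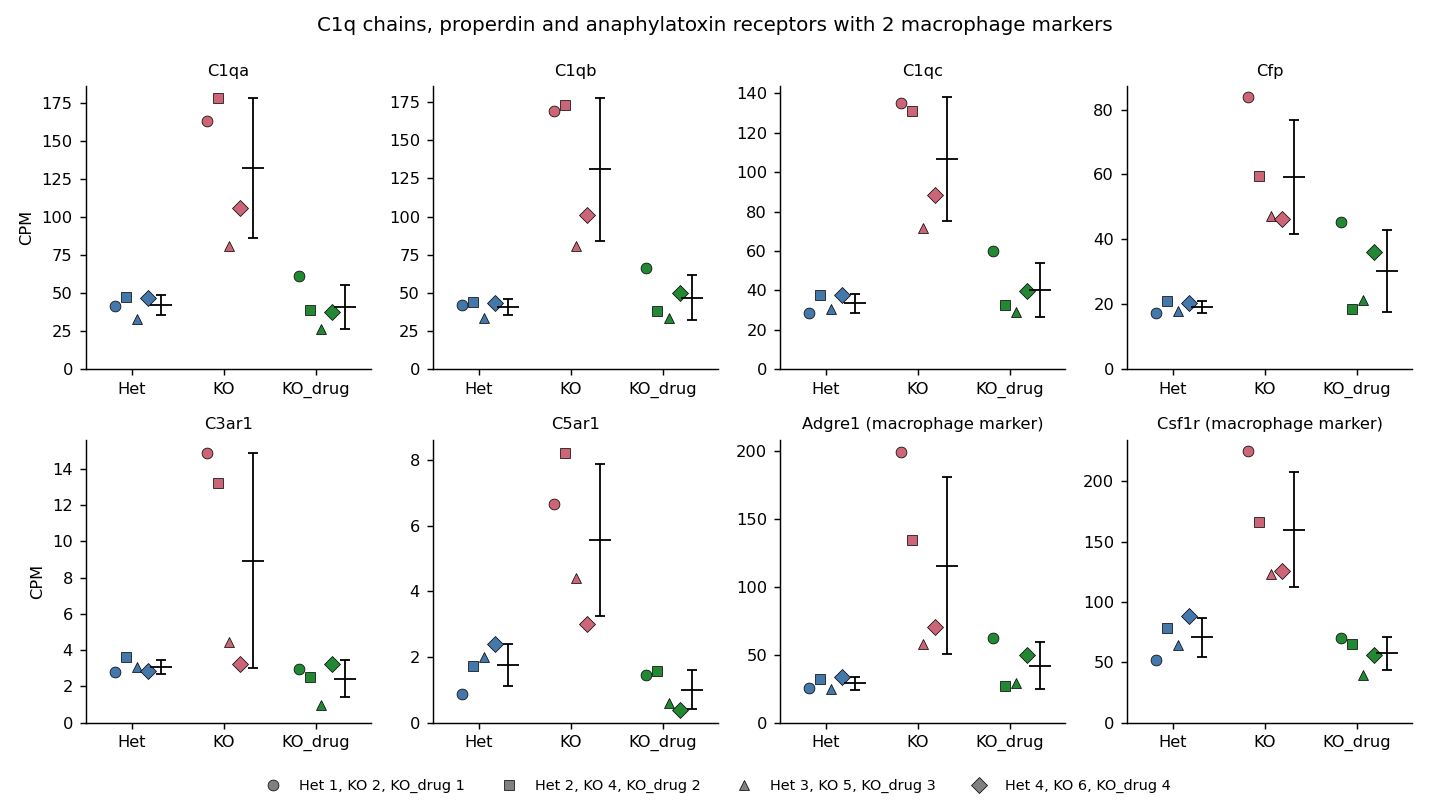
CPM (y axis, from 0) of the C1q chains, Cfp, C3ar1 and C5ar1 and of the macrophage markers Adgre1 and Csf1r in the 4 libraries of each group. Marker shapes give the library, and bars to the right of the points give mean ± SD. KO 2 and KO 4 are the highest 2 libraries in all 8 panels.

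The mannose-binding lectins, made by hepatocytes, changed in opposite directions. Mbl1 (chr14:41151456-41163904) and Mbl2 (chr19:30232906-30239687) encode the mouse lectins A and C that recognize sugars on microbes. The sequences before their starts are shown to set the pair side by side, chr14:41151206-41151455, plus strand, for Mbl1 and chr19:30232678-30232905, plus strand, for Mbl2. Capitals mark the longest run of bases that the promoters of the pair share.
Mbl1: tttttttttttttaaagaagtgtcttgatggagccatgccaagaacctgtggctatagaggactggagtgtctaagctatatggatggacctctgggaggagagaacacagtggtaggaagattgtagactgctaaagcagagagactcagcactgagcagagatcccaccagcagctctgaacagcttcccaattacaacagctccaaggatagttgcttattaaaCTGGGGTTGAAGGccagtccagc
Mbl2: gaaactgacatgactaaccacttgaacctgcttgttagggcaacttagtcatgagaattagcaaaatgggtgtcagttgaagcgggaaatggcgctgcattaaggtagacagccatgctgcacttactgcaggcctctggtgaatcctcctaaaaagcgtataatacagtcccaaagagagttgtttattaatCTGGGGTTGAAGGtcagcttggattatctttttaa
The shared run of 13 bases begins 23 bases before the end of the Mbl1 sequence and 35 bases before that of Mbl2. It occurs on either strand in 3 of 32851 promoters. Neither sequence holds GTTAAT or TTGCNNAA.

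Mbl1 stood at 238, 263, 243 and 235 CPM in Het, 129, 128, 102 and 118 in KO, and 101, 177, 119 and 104 in KO_drug. Mbl2 stood at 174, 206, 193 and 195 CPM in Het, 708, 825, 626 and 1020 in KO, and 325, 311, 530 and 501 in KO_drug. The 3 groups did not overlap for Mbl2, whereas for Mbl1 the KO and KO_drug libraries were mixed and all lay below Het. Mbl2 rose 4.14-fold in KO (log2 2.05, SE 0.21, edgeR adjusted p = 1.35e-05), the largest rise among the tested members, while Mbl1 fell by 1.04 (SE 0.17, adjusted p = 0.000464). In KO_drug, Mbl2 was 1.91-fold lower than in KO (log2 -0.93, SE 0.20, adjusted p = 0.00768) and 2.17-fold higher than in Het (1.12, SE 0.20, 0.0017). Mbl1 differed by 0.07 between KO_drug and KO (SE 0.17, adjusted p = 0.804) and fell by 0.97 against Het (SE 0.17, 0.00128). The ratio of Mbl2 to Mbl1 in FPKM, which does not depend on library scaling, was 0.631 to 0.715 in Het, 4.74 to 7.48 in KO and 1.52 to 4.17 in KO_drug. Het 1 was not apart for this ratio (0.631), and both calls stood without it, with log2 changes of 2.01 and -1.05 in KO against Het.

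The proteases of these routes changed less. Masp2, which activates the lectin pathway, is named here because it passed the test, outside the naming rule. It was 1.51-fold lower in KO (log2 -0.59, SE 0.18, edgeR adjusted p = 0.0188), with 133 to 227 CPM in Het and 114 to 157 CPM in KO, so that the groups overlapped, and its call was lost under total-count scaling (-0.05, adjusted p = 0.766) and without Het 2, Het 3, KO 4 or KO 5. Its span overlaps that of Tardbp, which changed by -0.08 (SE 0.16). In edgeR with TMM and all 12 libraries C1ra, C2, C4b and Masp1 were not called in any of the 3 comparisons. Their log2 changes were -0.39 to 0.45 in KO against Het and -0.62 to 0.11 in KO_drug against KO. Without Het 1 the changes against Het ran from -0.57 to 0.25, and Masp1 was called lower in KO (-0.57, adjusted p = 0.0155) and C1ra in KO_drug (-0.50, 0.0123). Limma-voom called Masp1 lower in KO with Het 1 included. In KO_drug against KO, C1ra changed by -0.62 (SE 0.22, edgeR adjusted p = 0.0624), with every KO_drug library below every KO library. There it was called lower under the DESeq2 Wald test and limma-voom and in a fit of these 2 groups alone. Total-count scaling and FPKM called C1ra and C2 lower there, and both higher in KO against Het. C4b and C1ra each have a near-identical copy in the genome (C4a and C1rb), and C2 shares its locus with Cfb at a gap of 0.088 kb, so reads may be split between neighbours.

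C3, the protein on which all complement routes meet, and Cfb, the protease of the alternative convertase, had their highest library in KO 2. C3 stood at 3500, 6220, 7320 and 8060 CPM in Het, 11200, 7520, 7480 and 6950 in KO, and 5780, 4840, 4690 and 6270 in KO_drug. Cfb stood at 592, 1720, 1530 and 1480 CPM, then 2800, 2160, 1490 and 1620, then 1060, 947, 1240 and 1040. Het and KO overlapped for both genes, and every KO_drug library lay below every KO library. In KO against Het neither was called (C3 log2 0.40, SE 0.26, edgeR adjusted p = 0.231; Cfb 0.60, SE 0.29, 0.117), and without Het 1 the changes were 0.20 and 0.36 (adjusted p = 0.458 and 0.198). In KO_drug against KO, Cfb fell by 0.91 (SE 0.29, adjusted p = 0.044), and C3 differed by -0.62 (SE 0.26, 0.108). The call of Cfb was lost in 6 of the 8 fits that left out 1 library, all but those without KO 5 or KO 6, and with no filter on low counts. Inducible acute phase genes, a separate list of 16 plasma and cytokine-response genes, had 7 members called higher and 1 lower in KO against Het and 5 lower in KO_drug against KO. Under total-count scaling 13 were called higher and none lower in KO against Het and 12 lower in KO_drug against KO, where 51.5% and 29.1% of all genes were called in those directions (23% and 11% under TMM). Their summed level was 22600 and 19600 CPM in KO 2 and KO 4 and 7030 and 8770 CPM in KO 5 and KO 6, and its part in the level of C3 and Cfb was not tested.

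In the terminal pathway the chains of C8 fell together in KO. C8a and C8b encode the pore-forming chains and lie 11.1 kb apart on chromosome 4, and C8g encodes the lipocalin chain on chromosome 2. The bases before C8a (chr4:104876488-104876648, minus strand) and C8b (chr4:104766067-104766316, plus strand) are shown because these neighbours both fell in KO. Each sequence holds GTTAAT, the half-site of the hepatocyte factor HNF1. Capitals mark GTTAAT or its reverse complement ATTAAC.
C8a: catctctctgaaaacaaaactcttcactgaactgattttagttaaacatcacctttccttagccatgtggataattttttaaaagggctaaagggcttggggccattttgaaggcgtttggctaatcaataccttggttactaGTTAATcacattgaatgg
C8b: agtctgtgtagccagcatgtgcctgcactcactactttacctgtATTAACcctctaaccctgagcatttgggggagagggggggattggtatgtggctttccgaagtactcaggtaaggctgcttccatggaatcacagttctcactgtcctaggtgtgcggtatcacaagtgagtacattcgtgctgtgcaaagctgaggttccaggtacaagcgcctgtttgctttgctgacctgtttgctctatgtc
GTTAAT, searched on both strands in the 250 bases before the start, occurred in 11 of 38 member promoters (28.9%) and in 6.43% of the 32851 promoters in the table. The members that hold it are C4bp, F13b, Hc, Fga, Fgb, C8a, C8b, C1ra, Vtn, C7 and Cfp. The motif TTGCNNAA of C/EBP factors, searched in the same way, occurred in 7 of 38 (18.4%) against 9.56%, and TTCNNNGAA of STAT factors in 7 of 38 (18.4%) against 7.02%.

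C8a stood at 728, 1670, 1410 and 1280 CPM in Het, 837, 556, 425 and 865 in KO, and 458, 605, 488 and 471 in KO_drug. C8b stood at 337, 818, 624 and 575 CPM, then 285, 187, 175 and 287, then 144, 244, 179 and 145. For C8g the levels were 488, 404, 387 and 418 CPM, then 151, 149, 131 and 178, then 174, 252, 315 and 291. Het lay above KO without overlap for C8b and C8g, and for C8a only Het 1 fell among the KO libraries. In KO against Het, C8g fell by 1.48 (SE 0.18, edgeR adjusted p = 5.51e-05), C8b by 1.33 (SE 0.27, 0.00192) and C8a by 0.92 (SE 0.27, 0.0145). Under total-count scaling the change of C8a was -0.38 and was not called (adjusted p = 0.162), while C8b and C8g were still called lower. The ratio of C8b to C8a in FPKM was 0.707 to 0.783 in Het, 0.526 to 0.656 in KO and 0.493 to 0.647 in KO_drug. C8b thus fell further than C8a. With the agonist the chains parted. C8g rose 1.69-fold in KO_drug against KO (log2 0.76, SE 0.18, adjusted p = 0.0106), whereas C8a and C8b differed by -0.41 (SE 0.27, 0.301) and -0.39 (SE 0.27, 0.328). The ratio of C8g to C8a in FPKM was 0.620 to 1.06 in KO and 1.30 to 2.22 in KO_drug, and in Het it was 0.832 to 1.13 apart from Het 1 (2.29). C8g was the only member called higher in KO_drug, and this call was lost under total-count scaling and on FPKM. The gene overlaps Fbxw5, which changed by 0.20 (SE 0.10) in the same comparison. Against Het, KO_drug was lower for C8a (-1.33, SE 0.27, adjusted p = 0.00344), C8b (-1.73, SE 0.28, 0.000643) and C8g (-0.72, SE 0.18, 0.011).

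The other terminal components, Hc (which encodes C5), C6, C7 and C9, were not called in KO against Het, with log2 changes from -0.43 to 0.24 (-0.50 to 0.03 without Het 1). In edgeR with TMM and all 12 libraries C9, the ring-forming subunit of the pore, was called only in KO_drug against Het (-0.80, SE 0.20, edgeR adjusted p = 0.0128). It is named because it passed that test. In KO_drug against KO it changed by -0.55 (SE 0.20, edgeR adjusted p = 0.0696), and every KO_drug library lay below every KO library. There it was called lower under the DESeq2 Wald test, limma-voom and total-count scaling. The same held on FPKM, in a fit of these 2 groups alone and without KO_drug 1. Its levels were 529 to 1060 CPM in Het, 562 to 776 in KO and 369 to 530 in KO_drug, where Het and KO_drug overlapped through Het 1. C7 was near the detection limit, at 1.63 CPM or less in every library and with no count in KO_drug 1 and KO_drug 2.

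**Figure D4:**
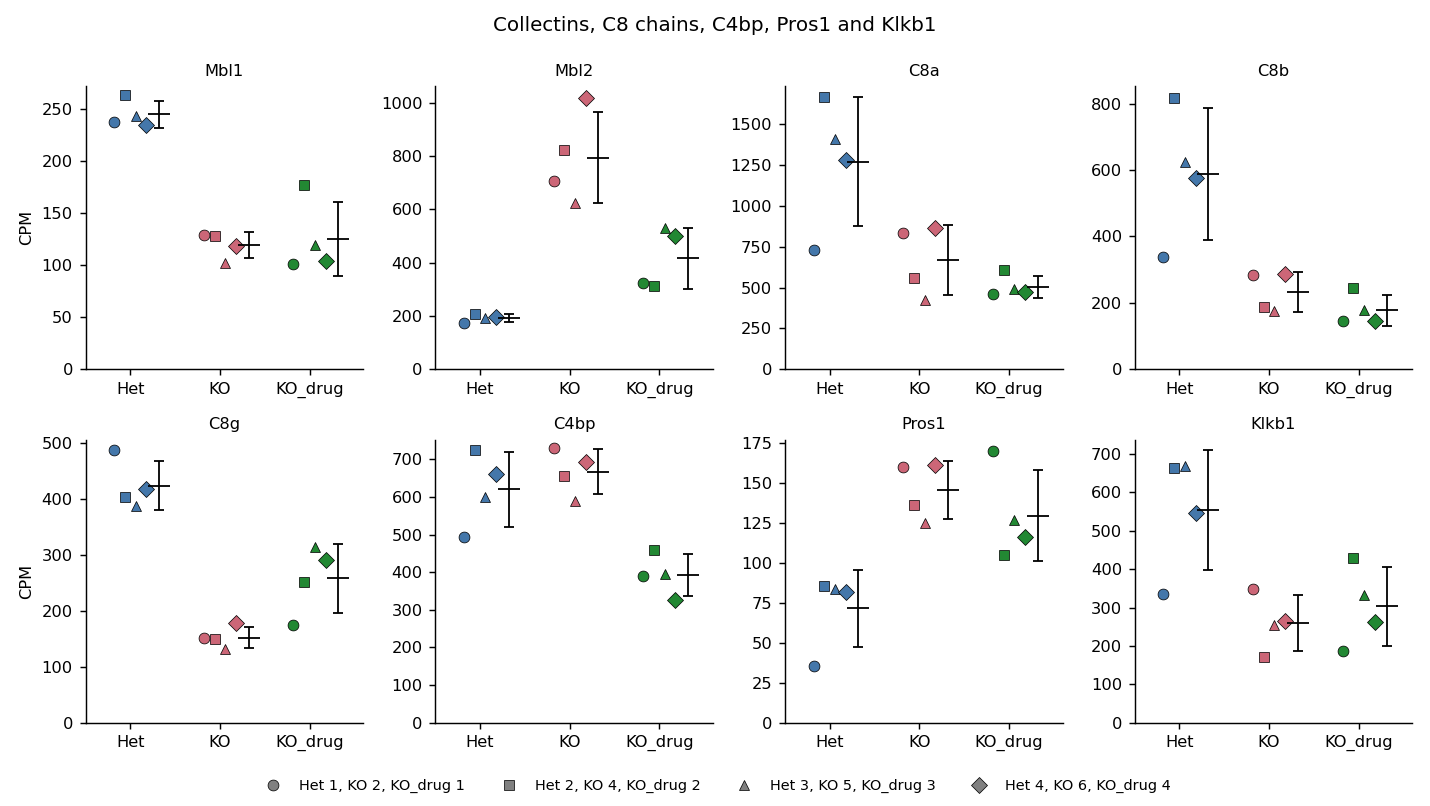
CPM (y axis, from 0) of Mbl1, Mbl2, C8a, C8b, C8g, C4bp, Pros1 and Klkb1 in the 4 libraries of each group, with mean ± SD to the right. Mbl2 separates all 3 groups, C8g is highest in Het, and C4bp is lowest in KO_drug (325 to 460 CPM).

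Among the fluid-phase regulators, C4bp and Serping1 passed a test. C4bp encodes the binding protein that breaks up the C4b-containing convertase. It stood at 493, 726, 600 and 662 CPM in Het, 731, 657, 588 and 694 in KO, and 390, 460, 396 and 325 in KO_drug, so that all KO_drug libraries lay below all others. It was not called in KO against Het (log2 0.11, SE 0.15, edgeR adjusted p = 0.612, or 0.01 without Het 1) and fell by 0.77 in KO_drug against KO (SE 0.16, 0.00544) and by 0.66 against Het (SE 0.16, 0.00867). Serping1, the inhibitor of C1 and kallikrein, stood at 301, 723, 687 and 730 CPM in Het, 1010, 851, 1040 and 1150 in KO, and 945, 550, 746 and 737 in KO_drug. The KO libraries lay above all Het libraries, with Het 1 far below the rest. Serping1 rose by 0.73 in KO (SE 0.26, adjusted p = 0.0359), or by 0.50 without Het 1 (SE 0.17, 0.0394). The call was lost without KO 2, KO 5 or KO 6 and in a fit of these 2 groups alone. With KO reduced to KO 2 and KO 4 it was lost as well (log2 0.55, adjusted p = 0.218). Serping1 differed by -0.44 in KO_drug against KO (SE 0.25, adjusted p = 0.242).

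Cfi, Clu, Vtn and Cd55 encode factor I, clusterin, vitronectin and decay-accelerating factor. In edgeR with TMM and all 12 libraries they were not called in any comparison. Their log2 changes in KO against Het were 0.64, 0.70, -0.24 and 0.57. Without Het 1 they were 0.43, 0.47, -0.45 and 0.55, and Vtn was called lower (adjusted p = 0.0449), as it was in KO_drug (-0.77, 0.00582). Clu was higher in every KO library (1650 to 2330 CPM) than in any Het library (600 to 1540 CPM). Cd55 stood at 31.7 and 29.2 CPM in KO 2 and KO 4 and at 12.8 and 17.9 CPM in KO 5 and KO 6. With KO reduced to KO 2 and KO 4 it was called higher (0.93, edgeR adjusted p = 0.0015).

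In edgeR with TMM and all 12 libraries, no clotting factor was called in KO against Het or in KO_drug against KO, apart from plasma prekallikrein. Klkb1 encodes this contact protease, which releases bradykinin from kininogen, and stood at 336, 663, 670 and 547 CPM in Het, 348, 172, 254 and 264 in KO, and 187, 430, 334 and 263 in KO_drug. Het 1 lay within the range of KO, and the other Het libraries lay above all knockout libraries. Klkb1 fell by 1.09 in KO (SE 0.29, edgeR adjusted p = 0.00853), or by 1.27 without Het 1, and total-count scaling gave -0.55 (adjusted p = 0.0701). Against Het it was lower in KO_drug by 0.87 (SE 0.29, adjusted p = 0.0457), a call that was lost in 6 of the 8 fits leaving out 1 library, under total-count scaling, on FPKM, with no filter and in a fit of these 2 groups alone. Between KO_drug and KO the difference was 0.23 (SE 0.28, adjusted p = 0.615). Klkb1 lies on chromosome 8 at 23.2 Mb from Atp7b, as does F11. Whether a strain allele carried along with the knockout has a part in the fall of Klkb1 was not tested.

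Prothrombin (F2) stood at 1180, 2180, 2260 and 1970 CPM in Het, 1420, 1090, 1640 and 1700 in KO, and 1440, 1530, 1770 and 1530 in KO_drug. Factor X (F10), which converts prothrombin to thrombin, stood at 346, 607, 622 and 519 CPM, then 408, 307, 386 and 480, then 512, 451, 438 and 384. For both, Het 2 to 4 lay above every KO library, and Het 1 lay among the KO libraries. The log2 changes in KO against Het were -0.37 for F2 (SE 0.21, edgeR adjusted p = 0.175) and -0.41 for F10 (SE 0.19, 0.113). Without Het 1 they were -0.55 (SE 0.16, adjusted p = 0.0209) and -0.56 (SE 0.16, 0.0163), and under total-count scaling 0.17 and 0.13. Limma-voom called F10 lower with Het 1 included. F10 and F7 lie 8.94 and 8.96 Mb from Atp7b on chromosome 8, so a strain allele linked to the knockout cannot be told apart from its loss for them.

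The remaining members of the group, F5, F7, F9, F11, F12, F13b and Kng1, had log2 changes of -0.27 to 0.25 in KO against Het and of -0.47 to 0.02 without Het 1, when Kng1 was called lower (-0.47, adjusted p = 0.0382). F11, which encodes the factor activated by contact, is given because it spread most within KO_drug. It stood at 27.0, 93.1, 49.0 and 40.8 CPM there, at 78.3 to 103 CPM in KO and at 73.1 to 102 CPM in Het, and was not called in KO_drug against KO (-0.81, SE 0.29, edgeR adjusted p = 0.0623). It was called lower without KO_drug 2, under limma-voom, the DESeq2 Wald test and total-count scaling, and on FPKM.

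The fibrinogen chains kept their proportions to each other while their sum varied among libraries. Fga, Fgb and Fgg encode the alpha, beta and gamma chains and form 1 cluster on chromosome 3. Fga stood at 3040, 10100, 9460 and 8850 CPM in Het, 5060, 4070, 6220 and 6310 in KO, and 6670, 3980, 5780 and 4050 in KO_drug. Fgb stood at 2640, 7670, 7370 and 6750 CPM, then 3740, 2930, 5070 and 4770, then 5080, 3310, 4670 and 3240. For Fgg the levels were 2430, 7000, 6270 and 6190 CPM, then 3180, 2670, 4240 and 4130, then 4740, 2870, 4080 and 2780. Het 2 to 4 lay above all 8 knockout libraries for each chain, and Het 1 lay below all of them. The ratio of Fga to Fgb in FPKM was 0.589 to 0.711 and that of Fgg to Fgb 0.835 to 0.931 over the 12 libraries.

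With Het 1 in the fit no fibrinogen chain was called, with log2 changes in KO against Het of -0.54 (Fga, SE 0.33, edgeR adjusted p = 0.21), -0.57 (Fgb, SE 0.31, 0.164) and -0.62 (Fgg, SE 0.31, 0.123). Without it the changes were -0.81 (SE 0.22, adjusted p = 0.0143), -0.82 (SE 0.22, 0.0141) and -0.87 (SE 0.23, 0.0105), and all 3 were called. Total-count scaling with Het 1 gave 0.02, -0.01 and -0.07. KO_drug and KO differed by -0.08 to 0.02 with standard errors of 0.31 to 0.33. In edgeR with TMM the calls in KO against Het thus came only without Het 1, and total-count scaling was not run without that library. Limma-voom called Fgg lower with Het 1 included.

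**Figure D5:**
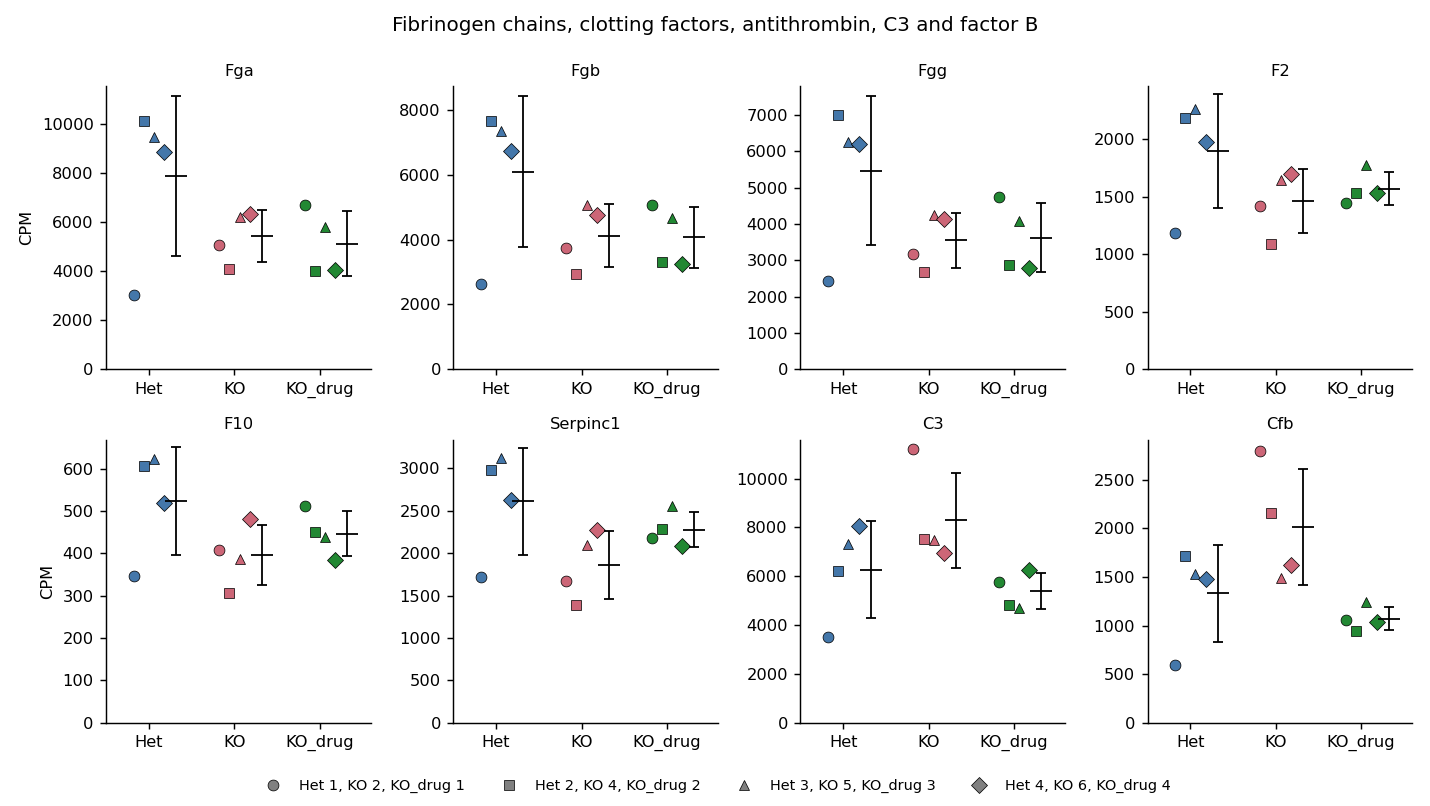
CPM (y axis, from 0) of Fga, Fgb, Fgg, F2, F10, Serpinc1, C3 and Cfb in the 4 libraries of each group, with mean ± SD to the right. The circle of Het 1 is the lowest Het point in every panel, and for the fibrinogen chains it lies below all other libraries (Fga at 3040 CPM).

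Of the anticoagulants, protein S rose in KO and stayed high with the agonist. Pros1 encodes this cofactor of activated protein C, which also bridges dying cells to phagocytes. It stood at 35.7, 85.5, 83.5 and 81.6 CPM in Het, 160, 136, 125 and 161 in KO, and 170, 105, 127 and 116 in KO_drug. Every knockout library lay above every Het library, and KO and KO_drug overlapped. Pros1 rose 2.03-fold in KO (log2 1.02, SE 0.24, edgeR adjusted p = 0.00481), or by 0.80 without Het 1 (SE 0.16, 0.00294), and by 0.86 in KO_drug against Het (SE 0.24, 0.0228), a call lost without KO_drug 1. Between KO_drug and KO the difference was -0.17 (SE 0.24, adjusted p = 0.662).

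Protein C (Proc), the protease that protein S serves, stood at 262, 483, 503 and 409 CPM in Het, 332, 244, 390 and 385 in KO, and 311, 322, 435 and 362 in KO_drug. It was not called in KO against Het (-0.29, SE 0.21, edgeR adjusted p = 0.29, or -0.46 and 0.0601 without Het 1), and the ratio of Pros1 to Proc in FPKM was 0.0658 to 0.0964 in Het, 0.155 to 0.270 in KO and 0.140 to 0.264 in KO_drug. Antithrombin (Serpinc1), the inhibitor of thrombin and factor Xa, stood at 1720, 2980, 3120 and 2630 CPM, then 1670, 1390, 2100 and 2270, then 2180, 2280, 2560 and 2080. Its Het 2 to 4 libraries lay above all knockout libraries. The change in KO against Het was -0.49 (SE 0.21, adjusted p = 0.0792), or -0.65 without Het 1 (SE 0.18, 0.0135). With Het 1 included, Serpinc1 was called lower under limma-voom and the DESeq2 Wald test. The same held in edgeR with KO reduced to KO 2 and KO 4 (-0.83, adjusted p = 0.0309). Plg, Serpind1 and Serpinf2, which encode plasminogen, heparin cofactor II and the plasmin inhibitor, had log2 changes of -0.36 to -0.18 and were not called. Without Het 1 these were -0.58 to -0.38, and Plg and Serpinf2 were called lower (adjusted p = 0.0267 and 0.0338).

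KO_drug against KO asks what goes with the agonist in knockout liver. Of the 47 tested members, 10 were called (21.3%, against 19.8% of all genes). C8g alone rose (2.13%, against 8.8% of all genes), and 9 fell (19.1%, against 11% of all genes), namely C1qa, C1qb, C1qc, Cfp, C3ar1, C5ar1, Cfb, Mbl2 and C4bp. All 9 belong to complement, and in this fit no clotting, fibrinogen or anticoagulant member was called, where the median changes were 0.15, -0.02 and 0.00. Under total-count scaling and on FPKM, F9, F11 and Serpind1 were called lower too. The difference between these role groups was not tested. In CPM, 12 members lay lower in every KO_drug library than in any KO library (25.5%, against 12.5% of all genes), the 9 called ones with C1ra, C3 and C9. Under total-count scaling no member was called higher and 23 were called lower, where 2.68% and 29.1% of all genes were. The median member changed by -0.17 and the median of all genes by -0.02. With KO reduced to KO 2 and KO 4 the 10 calls remained and Cd55 was added, so that 10 members were lower (21.3%, against 10.4% of all genes).

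KO_drug against Het shares its libraries with the other comparisons and places the agonist-fed knockout beside the control. Here 9 members were called (19.1%, against 21.4% of all genes). Mbl2 and Pros1 were higher (4.26%, against 13% of all genes), and C8a, C8b, C8g, C9, Mbl1, C4bp and Klkb1 were lower (14.9%, against 8.45% of all genes). Without Het 1, 16 members were called lower (34.0%, against 8.45% of all genes), the added ones being C1ra, C6, Vtn, F9, Fga, Fgb, Fgg, Serpind1 and Serpinf2. This share too is tied to the choice of Het 1 by the members' own levels. Under total-count scaling 5 were higher and 6 lower, where 18.2% and 3.73% of all genes were.

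Other genes of the pathways were counted from lists beside the members. Of 28 tested complement genes outside the list, 9 were called higher and 5 lower in KO against Het (14 and 2 under total-count scaling), and 2 higher and 9 lower in KO_drug against KO (1 and 14 under that scaling). Of all genes, 23% were called higher and 17.7% lower in KO against Het, and 8.8% and 11% in KO_drug against KO. Under total-count scaling those shares were 51.5% and 3.44%, then 2.68% and 29.1%. Without Het 1, 7 of the 28 genes were called lower in KO against Het, where 16.5% of all genes were. Itgb2, the beta chain of complement receptors 3 and 4, was higher in every KO library (20.9 to 66.2 CPM) than in any Het library (4.90 to 10.5 CPM; log2 2.45, SE 0.38, edgeR adjusted p = 0.000301) and fell by 1.79 in KO_drug against KO (SE 0.37, 0.00572). Cd93, a myeloid and endothelial receptor, rose 2.83-fold in KO (SE 0.23 on the log2 scale, 0.00028) and fell by 0.89 with the agonist (SE 0.22, 0.0153). C1qbp, a mitochondrial protein first found as a binder of C1q, changed the other way, with 31.8 to 39.5 CPM in Het, 15.2 to 20.5 in KO and 23.5 to 38.5 in KO_drug (log2 -0.98, SE 0.15, 0.000297, then 0.83, SE 0.15, 0.00344).

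Of 40 tested coagulation, vitamin K and fibrinolysis genes outside the list, 10 were called higher and 7 lower in KO against Het (22 and 7 under total-count scaling), and 4 higher and 7 lower in KO_drug against KO (1 and 13). The shares of all genes were again 23% and 17.7% (51.5% and 3.44%), then 8.8% and 11% (2.68% and 29.1%). Without Het 1, 10 of the 40 genes were called lower in KO against Het, where 16.5% of all genes were. Vkorc1, the enzyme that recycles vitamin K for the clotting factors and the target of warfarin, stood at 84.5 to 109 CPM in Het, 31.1 to 41.0 in KO and 44.4 to 56.8 in KO_drug, so that no groups overlapped. It fell by 1.42 in KO (SE 0.13, edgeR adjusted p = 5.05e-06) and rose by 0.53 in KO_drug against KO (SE 0.13, 0.0119). S100a10, which with annexin A2 binds plasminogen at cell surfaces, stood at 39.2 to 54.0, 118 to 196 and 203 to 288 CPM in the 3 groups (log2 1.90, SE 0.18, 8.66e-06 in KO against Het). Fgl2, a membrane prothrombinase of immune and endothelial cells, stood at 1.16 to 2.68, 19.5 to 55.2 and 19.2 to 57.4 CPM (log2 4.26, SE 0.41, 9.29e-06) and differed by -0.21 between KO_drug and KO (SE 0.34, 0.709).

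Lists of other secreted hepatocyte proteins and of hepatocyte factors give the setting of the members. Of 23 other plasma proteins of hepatocytes, 1 was called higher and 9 lower in KO against Het (4 and 3 under total-count scaling), with a median change of -0.50 beside -0.08 for the members. Of 12 hepatocyte transcription factors, 8 were called lower (4 under total-count scaling, with 2 higher). Among all genes 23% were called higher and 17.7% lower (51.5% and 3.44% under total-count scaling). Without Het 1, 11 of the plasma proteins and 7 of the factors were called lower, where 16.5% of all genes were. In KO_drug against KO the first list had 2 members higher and none lower, and the second 2 higher and none lower. Total-count scaling turned this balance, to 2 higher and 6 lower for the plasma proteins and 0 higher and 1 lower for the factors. The shares of all genes higher and lower were 8.8% and 11%, and 2.68% and 29.1% under that scaling. Of the other cell type lists in KO against Het, 4 of 4 tested neutrophil, 3 of 8 sinusoidal endothelial, 3 of 8 stellate, 3 of 6 cholangiocyte, 1 of 4 platelet and 1 of 1 adipocyte markers were called higher and none lower (4, 4, 5, 3, 2 and 1 under total-count scaling). Beside these counts, 23% of all genes were called higher (51.5% under total-count scaling). The part of these cell types in the members' changes was not tested. By RefSeq gene spans 6 members overlap another protein-coding gene (C8a, C8g, Masp1, Masp2, F2 and Serpind1), and the strand setting of the deposited counts is not given in the sources used here, so for those the counts may hold reads of the neighbour.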

How the data were processed

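Per the labels' protocols, frozen liver gave RNA (RNeasy) for TruSeq Stranded Total RNA libraries. FastQC 0.11.7, StringTie 2.1.3b and build mm10 are named in the submitters' processing notes, while for aligner, annotation release and strand setting the sources used here name none. The authors deposited 1 table with a read count and an FPKM (a fragment count scaled by gene length and library size) for each gene and library, per the file headers. Its 3 unnamed columns, filled for 4 genes, were left out.

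Counts were tested with edgeR 4.0.16 (R 4.3.3, quasi-likelihood, TMM) over all 12 libraries after filterByExpr (minimum count 10, minimum total 15), which left 13379 genes. P-values were two-sided and adjusted by Benjamini-Hochberg over all of them, with calls at 0.05. Alternatives used DESeq2 1.42.0, limma 3.58.1, other scalings, no filter, a replicate block, only the groups compared, and each library left out. Equal replicate numbers pair no libraries by the labels. Nothing states that libraries of a group are separate animals, so p-values measure the spread between these libraries.

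Values in every library are given for the 3 members of each role group with the smallest adjusted p in KO against Het, members called in KO_drug against KO with a 1.5-fold change, and members called in KO against Het with a 2-fold change, 24 in all. For other genes of the pathways the 3 smallest adjusted p of each list are given. Members and lists were chosen with earlier results of these data known. Promoters are from RefSeq (37 of 48 members matched by gene number). C1qa had no entry.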

Additional observations from a re-analysis of the deposited data

Results flagged for a closer look

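A library that stood far from the other 3 of its group was looked for in 72 sets of 4 values (24 members in 3 groups), and 4 were found, where chance flags about 1 in 20. Serping1 in Het 1 was at 301 CPM, below 687 to 730 CPM in the other Het libraries. Pros1 in Het 1 was at 35.7 CPM, below 81.6 to 85.5 CPM. C1qb in Het 3 was at 33.2 CPM, below 42.1 to 43.9 CPM. C3 in KO 2 was at 11200 CPM, above 6950 to 7520 CPM in the other KO libraries.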

How the results depend on the processing

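Total-count scaling moved the counts of members called higher and lower to 22 and 3 in KO against Het, to 0 and 23 in KO_drug against KO, and to 5 higher in KO_drug against Het. On FPKM with limma they were 23 and 3, then 0 and 23, then 4 higher. These 2 settings turned the sign of log2 changes that were not called. In KO against Het they gave 0.17 and 0.19 for F2, 0.13 and 0.15 for F10, 0.02 and 0.12 for Fga, 0.25 and 0.26 for Proc and 0.05 and 0.06 for Serpinc1, and FPKM alone 0.05 for Fgb and 0.00 for Fgg. In KO_drug against KO they gave -0.24 and -0.24 for F2, -0.15 and -0.17 for F10, -0.31 and -0.34 for Fgg, -0.12 and -0.15 for Klkb1, -0.28 and -0.32 for Mbl1, -0.26 and -0.26 for Proc and -0.04 and -0.04 for Serpinc1. In KO_drug against Het they gave 0.14 and 0.08 for C1qa and 0.00 and 0.01 for Serpinc1, and FPKM alone 0.02 for C3 and 0.00 for Proc. The cause was not tested beyond the shift of all genes.

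With limma-voom 10 members were called lower in KO against Het and 14 in KO_drug against Het, and Fgg changed by -0.05 in KO_drug against KO. Using the replicate block, Serping1 (adjusted p = 0.279) and Pros1 (0.0624) were no longer called in KO against Het, nor Pros1 in KO_drug against Het (0.0684), nor C8g and Cfb in KO_drug against KO. Cd55 was called higher and Serpinc1 lower in KO against Het, Cd55 lower in KO_drug against KO, and F11 lower in KO_drug against Het. So 0 members were called higher in KO_drug against KO and 1 in KO_drug against Het, with Fga at 0.21 and Fgb at 0.33 in KO_drug against KO. Same-numbered libraries correlated at -0.0346 to 0.136, so the numbers were not taken as pairs. With KO 2 and KO 4 alone, Fga, Fgb and Mbl1 changed by 0.20, 0.33 and 0.00 in KO_drug against KO.

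Leaving out each library in turn gave 5 (without Het 2) to 17 (without Het 1) members lower in KO against Het, and 6 to 16 lower and 1 to 3 higher in KO_drug against Het. In KO_drug against KO the uncalled changes ranged from -0.02 to 0.18 for F2, -0.16 to 0.09 for Fgb, -0.05 to 0.15 for Proc, -0.24 to 0.02 for Fga, -0.13 to 0.13 for Fgg and -0.14 to 0.16 for Mbl1. In KO_drug against Het they ranged from -0.31 to 0.11 for C1qa and -0.02 to 0.34 for C1qb. Without KO_drug 1, Pros1 was no longer called higher there. No called change turned its sign under any alternative run, and DESeq2 size factors changed no member's call. C7, C3ar1 and C5ar1 had few counts, which limits their precision.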
